A study of Mus musculus with 8 samples.

Results

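The collagen chains are the alpha chains from which every collagen molecule is wound, and they were taken as all genes whose symbol in the array annotation has the form Col, a type number, a and a chain number. Each chain was read through the probe set, a group of short probes for one transcript, with the highest mean over the arrays among those naming that gene alone. This gave 42 chains of the 18193 genes measured in this way, and 3 further chains of the family, Col21a1, Col28a1 and Col6a6, had no probe set named here. The chains had 82 probe sets between them, none of which also named another gene.

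The arrays compared CD3+CD8+CD44+CD62L- T cells, the antigen-experienced effector phenotype, sorted from subcutaneous MC38 tumors (a colon carcinoma line) and from lymph nodes (LN) of the C57BL/6 female mice, aged 6 to 8 weeks, that carried them. There were 2 arrays in each of 4 groups: tumor T cells with IR, tumor T cells without IR, LN T cells with IR and LN T cells without IR, where IR was 5 Gy to the whole body 5 h before the cells were taken. Each array held a pool of 4 mice, the design describes 2 independent experiments, and the labels do not say which arrays came from the same one. Tumors were digested with enzymes, and their cells were spun in Percoll and enriched for CD8+ cells before sorting. The paper describes these steps for tumors and not for LN, which were broken up mechanically. Tissue and preparation therefore cannot be told apart.

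Collagens are the main structural proteins of the extracellular matrix. Fibrillar types build the fibres of connective tissue, type IV forms the sheet of basement membranes under epithelia and around vessels, type VI forms beaded filaments close to cells, and smaller groups decorate fibrils, anchor membranes or cross the plasma membrane. Fibroblasts and other mesenchymal cells are their best known source, and a chain is secreted only after it has been hydroxylated, folded with its partners and exported.

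The values are log2 intensities from RMA, a method that removes background, equalises the distributions of the arrays and reduces a probe set to 1 value. The 2 arrays of a group correlated between 0.966 and 0.993 over all genes, with the lowest value in LN T cells with IR. The 12 measured genes of T cell identity averaged 11.1 to 11.8 on every array. The lower quartile of an array was 5.38 to 5.59, levels below that may be background, so the size of a difference from them is not exact. Below, a chain is called (higher or lower) at an adjusted p under 0.1 in limma's test together with a log2 difference of 1 or more in size, and every difference is tumor minus LN or IR minus no IR. Intensities are compared between arrays for one probe set, never between chains.

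The first question was which collagen chains differed between T cells from tumors and from LN. Without IR 13 of 42 chains were higher in tumor T cells, in a comparison in which 4.50% of all genes were called higher, and no chain was lower (1.04% of all genes; 17 of 42 chains had an unadjusted p under 0.05 in either direction, against 17.7%). With IR 14 of 42 were higher (background 4.80%) and again none was lower (2.00%; 18 of 42 chains with an unadjusted p under 0.05, against 21.7%). The same 13 chains were called in both comparisons, and Col18a1 was added with IR. The chains came from the fibrillar class (6 of 11), the basement membrane class (2 of 6), the beaded filament class (3 of 5), the short chain networks (1 of 3), the fibril-associated collagens or FACITs (1 of 9) and, with IR, the multiplexins (1 of 2). The median difference over the 13 chains was 2.79 without IR, and over the 14 with IR it was 3.02. Over all 42 chains it was 0.09 without IR, against -0.09 over all genes, and 0.35 with IR, against 0.06. Of the 42 chains, all 14 called and 3 uncalled ones (Col11a1, Col4a5 and Col16a1) had the lowest of the 4 tumor arrays above the highest of the 4 LN arrays. Over all genes the share was 10.9%. For the called chains this was largely set by the call, which used the same arrays.

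**Figure D1:**
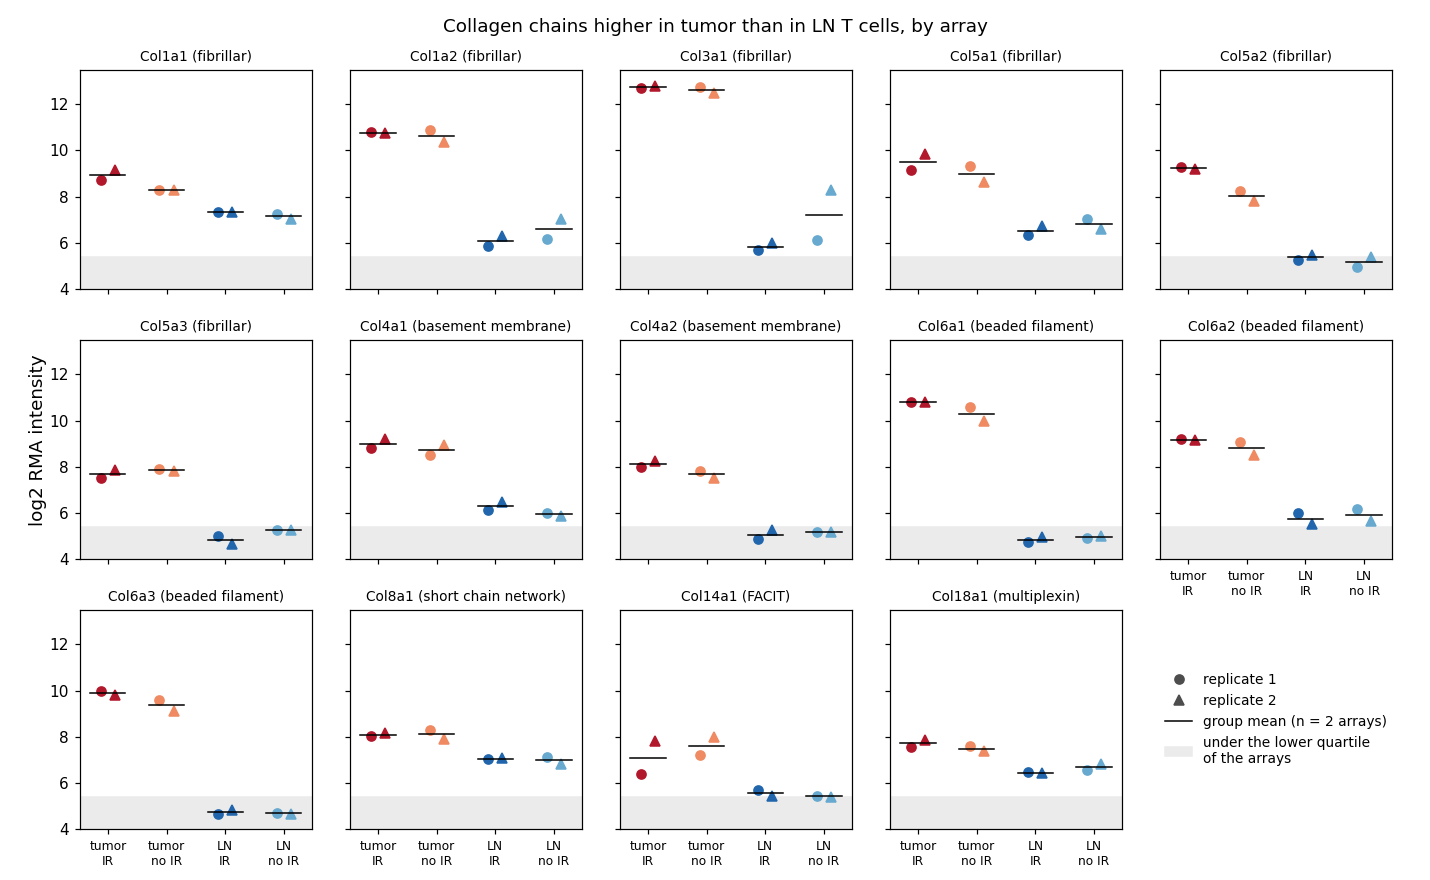
Log2 RMA intensity (vertical axis) of the 14 collagen chains that were higher in tumor T cells, by array and group, with a line at the mean of the 2 arrays and grey shading under the lower quartile of the arrays. In every panel the 4 tumor arrays lie above the 4 LN arrays, and LN T cells without IR replicate 2 stands apart for Col3a1 (8.30) and Col1a2 (7.02).

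Type III collagen is a fibre of soft organs and vessel walls, and Col3a1 encodes its only chain. Its probe set read 12.70 and 12.81 in tumor T cells with IR and 12.74 and 12.51 in tumor T cells without IR, against 5.67 and 5.99 in LN T cells with IR and 6.12 and 8.30 in LN T cells without IR. The tumor arrays were close to each other, whereas the LN arrays without IR lay further apart than those of any other called chain, with replicate 2 high. The difference was 6.92 ± 0.60 with IR (SE, adjusted p = 0.00122) and 5.41 ± 0.60 without IR (adjusted p = 0.00341). Without that replicate the difference without IR was 6.51 (adjusted p = 0.00253), and without replicate 1 it was 4.32 (adjusted p = 0.00234). The chain's second probe set also rose, by 4.67 without IR. The promoter of Col3a1 is shown because both probe sets of the chain were called in both comparisons, and it is printed with the stretch TATAAA in capitals, the letters of a TATA box, which starts 117 bases before the annotated start. The sequence is that of RefSeq in build GRCm38.p6, 5′ to 3′ on the strand of the gene.

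Col3a1 (chr1:45311288-45311537, plus strand): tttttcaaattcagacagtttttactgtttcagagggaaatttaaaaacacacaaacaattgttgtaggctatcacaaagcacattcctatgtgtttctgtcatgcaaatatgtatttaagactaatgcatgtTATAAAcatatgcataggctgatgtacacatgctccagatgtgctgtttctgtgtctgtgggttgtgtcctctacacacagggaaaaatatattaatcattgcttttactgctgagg

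Type I collagen, the most common fibre of skin, tendon and bone, is wound from the chains of Col1a1 and Col1a2. Col1a2 read 10.78 and 10.76 in tumor T cells with IR, and 10.88 and 10.36 in tumor T cells without IR. In LN T cells it read 5.84 and 6.30 with IR, and 6.16 and 7.02 without IR. The higher LN array without IR was again replicate 2, still below every tumor array. The differences were 4.70 ± 0.32 with IR (adjusted p = 0.000458) and 4.03 ± 0.32 without IR (adjusted p = 0.000841). Col1a1, its partner in the same molecule, read 8.71 and 9.14 in tumor T cells with IR and 8.29 and 8.30 without IR. Its LN values were 7.32 and 7.35 with IR and 7.24 and 7.05 without IR. Tumor arrays again lay above LN arrays, with the smaller differences of 1.59 ± 0.18 with IR (adjusted p = 0.00357) and 1.15 ± 0.18 without IR (adjusted p = 0.0134). The second probe set of Col1a1 gave 2.21 with IR and 1.02 without. Without tumor no IR replicate 2 the Col1a1 difference without IR was 1.14 and did not pass (adjusted p = 0.114). Of the 3 probe sets of Col1a2, 2 were called in both comparisons, and the remaining one gave -0.03 with IR and -0.09 without. That one averaged under the lower quartile in all 4 groups, so a difference in it could have gone unseen. The promoter of Col1a2 is shown beside that of its fibril partner Col3a1: it holds the letters GGGCGG (a GC box) at 205 and 188 bases before the start and CCAAT at 109, all in capitals, and no TATAAA.

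Col1a2 (chr6:4505368-4505617, plus strand): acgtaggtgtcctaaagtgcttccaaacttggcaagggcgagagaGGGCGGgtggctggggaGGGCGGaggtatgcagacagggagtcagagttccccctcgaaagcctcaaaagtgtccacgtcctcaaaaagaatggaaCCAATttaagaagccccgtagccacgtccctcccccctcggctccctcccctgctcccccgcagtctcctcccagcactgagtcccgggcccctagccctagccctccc

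Type V chains are built into type I fibrils and set their width. Col5a2 read 9.27 and 9.21 in tumor T cells with IR and 8.25 and 7.79 without IR, against 5.24 and 5.48 in LN T cells with IR and 4.94 and 5.37 without IR. Both LN groups averaged under the lower quartile, and the difference was 3.88 ± 0.22 with IR (adjusted p = 0.000256) and 2.87 ± 0.22 without (adjusted p = 0.000768). Col5a1 read 9.14 and 9.84 in irradiated tumor T cells and 9.30 and 8.62 in unirradiated ones. LN T cells gave 6.32 and 6.70 with IR and 7.01 and 6.60 without. The groups did not overlap, and the difference was 2.98 ± 0.33 with IR (adjusted p = 0.0032) and 2.16 ± 0.33 without (adjusted p = 0.0116). Col5a3, a chain of more restricted expression, read 7.50 and 7.86 in tumor T cells with IR and 7.88 and 7.82 without. In LN T cells it was under the lower quartile, at 5.00 and 4.65 with IR and 5.27 and 5.25 without. Its differences were 2.86 ± 0.19 (adjusted p = 0.000418) and 2.59 ± 0.19 (adjusted p = 0.000632). Its second probe set did not pass (0.00 with IR and 0.11 without IR, adjusted p = 0.998 and 0.812), and it read 5.39 in LN T cells without IR, at the lower quartile. The other fibrillar chains did not pass in either comparison. They include Col2a1, the cartilage collagen (-0.12 with IR and -0.26 without), and Col11a1 and Col24a1, which were under the lower quartile in all 4 groups. Col27a1 gave 0.56 with IR (adjusted p = 0.117) and 0.20 without (adjusted p = 0.637), and its second, dimmer probe set passed with IR (1.05, adjusted p = 0.0762).

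Type IV collagen has 6 genes, which lie in head-to-head pairs. Col4a1 and Col4a2 make the form found in all basement membranes, and Col4a3 to Col4a6 make forms of the kidney filter, eye, ear and a few other sites. Col4a1 read 8.81 and 9.18 in tumor T cells with IR and 8.51 and 8.94 without, against 6.14 and 6.46 in LN T cells with IR and 6.01 and 5.85 without. All tumor arrays were more than a log2 unit above the LN arrays, and the differences were 2.70 ± 0.22 with IR (adjusted p = 0.00095) and 2.79 ± 0.22 without (adjusted p = 0.000839). Col4a2 read 7.98 and 8.23 in tumor T cells with IR and 7.81 and 7.52 without. Its LN values, 4.84 and 5.24 with IR and 5.15 and 5.18 without, had group means under the lower quartile. The differences were 3.06 ± 0.19 (adjusted p = 0.000355) and 2.50 ± 0.19 (adjusted p = 0.000808). The members of the pair therefore rose together, and the short stretch that holds a start of each is shown for that reason. In capitals are the 22 bases from the start of Col4a2, which runs to the right, to a start of Col4a1, which runs to the left on the other strand. With these starts the genes overlap over the 22 bases. The Col4a1 start is that of the promoter window used, at 11312826. The RefSeq gene reaches further, to 11312889, outside the printed stretch. The stretch includes the letters GGGCGG.

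Col4a1/Col4a2 (chr8:11312801-11312830, plus strand): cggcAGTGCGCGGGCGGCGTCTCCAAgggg

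None of the other type IV chains passed. Col4a5 gave 0.73 with IR (adjusted p = 0.0215, under the fold limit) and 0.19 without. Col4a3 gave 0.02 and -0.36, and Col4a6 gave -0.17 and -0.04. Col4a4 had the lowest difference of the family in both comparisons, -0.81 with IR and -0.48 without (adjusted p = 0.258 and 0.586). Its LN arrays with IR read 6.20 and 7.42, against 6.14 and 5.85 in irradiated tumor T cells, and without LN IR replicate 1 it was called lower (-1.42, adjusted p = 0.0109).

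Type VI collagen joins the products of Col6a1, Col6a2 and Col6a3 in one molecule, and all 3 were called in both comparisons. Col6a1 read 10.82 and 10.82 in tumor T cells with IR and 10.60 and 10.00 without, against 4.72 and 4.93 in LN T cells with IR and 4.92 and 5.00 without. The LN values lay under the lower quartile, and the differences of 6.00 ± 0.21 with IR (adjusted p = 9.95e-05) and 5.34 ± 0.21 without (adjusted p = 0.000131) therefore have no exact size. Col6a3 read 9.97 and 9.81 in tumor T cells with IR and 9.60 and 9.12 without. Its LN values were likewise under the lower quartile, 4.64 and 4.84 with IR and 4.71 and 4.67 without. The differences were 5.15 ± 0.19 (adjusted p = 9.95e-05) and 4.68 ± 0.19 (adjusted p = 0.000131). Col6a2 read 9.18 and 9.17 in tumor T cells with IR and 9.07 and 8.51 without, and 5.98 and 5.50 in LN T cells with IR and 6.17 and 5.67 without. It rose by 3.44 ± 0.27 with IR (adjusted p = 0.000807) and 2.87 ± 0.27 without (adjusted p = 0.00171), and its second probe set was called as well (2.26 and 1.98). Col6a4 and Col6a5, further chains of the class, did not pass (-0.10 and 0.13 with IR, -0.15 and 0.16 without), and Col6a5 was under the lower quartile in every group. The promoters of Col6a1 and Col6a3, the chains with the lowest adjusted p of the family, hold none of the 3 motifs searched in the 250 bases before the start, which says only that these letters are not in this window. For Col6a3 the start is that of the promoter window used, and the RefSeq gene reaches 90844001, inside the printed stretch.

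Col6a1 (chr10:76726045-76726294, minus strand): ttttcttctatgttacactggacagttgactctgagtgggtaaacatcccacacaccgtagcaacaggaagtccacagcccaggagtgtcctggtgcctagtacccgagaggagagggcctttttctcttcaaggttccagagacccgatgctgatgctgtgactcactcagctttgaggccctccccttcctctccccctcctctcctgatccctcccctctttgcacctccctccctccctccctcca

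Col6a3 (chr1:90843972-90844221, minus strand): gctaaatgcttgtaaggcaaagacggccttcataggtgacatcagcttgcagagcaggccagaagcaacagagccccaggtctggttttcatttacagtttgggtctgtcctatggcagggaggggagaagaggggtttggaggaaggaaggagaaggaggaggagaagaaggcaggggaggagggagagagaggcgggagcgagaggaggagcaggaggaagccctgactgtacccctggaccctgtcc

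Col8a1, Col14a1 and Col18a1 were also called in at least one comparison. Col8a1, a short chain collagen of vessel walls and of the membrane behind the cornea, read 8.01 and 8.15 in tumor T cells with IR and 8.30 and 7.91 without, against 7.02 and 7.09 in LN T cells with IR and 7.14 and 6.81 without. It passed at 1.02 ± 0.19 with IR (adjusted p = 0.0225) and 1.13 ± 0.19 without (adjusted p = 0.0172). Its other 2 probe sets, dimmer in LN T cells, gave 3.23 and 3.70 with IR and 2.51 and 3.22 without. The call of the chosen probe set was lost without any of 3 arrays with IR (tumor IR replicate 1 or 2 or LN IR replicate 1, where the differences were 1.09, 0.96 and 0.99) and without tumor no IR replicate 1 (0.93) or LN no IR replicate 2 (0.96).

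Col14a1 encodes a FACIT, a collagen that sits on the surface of fibrils. It read 6.37 and 7.82 in tumor T cells with IR and 7.21 and 8.00 without, against 5.70 and 5.43 in LN T cells with IR and 5.44 and 5.39 without. The tumor arrays of each group differed by more than for the other called chains of the family, with replicate 2 above replicate 1 both with and without IR. It passed at 1.53 ± 0.46 with IR (adjusted p = 0.0941) and 2.19 ± 0.46 without (adjusted p = 0.0402). With IR this call held under 9 of 19 alternative settings, and without tumor IR replicate 2 the difference was 0.80 (adjusted p = 0.371). Without tumor no IR replicate 2, or without either LN no IR array, the difference without IR was 1.80 to 2.22 and did not pass (adjusted p = 0.131 to 0.278). The 13 measured macrophage and monocyte markers averaged 8.84 and 10.29 in tumor T cells with IR and 10.18 and 10.97 without, against 6.14 and 6.53 in LN T cells with IR and 5.91 and 6.36 without, and so ordered the 4 tumor arrays as Col14a1 did; their part in the result was not tested. Col18a1, a heparan sulfate-bearing collagen of basement membranes whose end fragment is endostatin, read 7.55 and 7.87 in tumor T cells with IR and 7.58 and 7.37 without. It read 6.49 and 6.41 in LN T cells with IR and 6.57 and 6.80 without. With IR it rose by 1.26 ± 0.18 (adjusted p = 0.00779), and without IR its difference of 0.79 ± 0.18 (adjusted p = 0.0491) was under the fold limit. Its second probe set gave 0.73 with IR and 0.66 without, both under the fold limit, so the call with IR rests on 1 probe set.

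The other 28 chains were called in neither comparison. Their differences were lowest for Col4a4 (-0.81 with IR and -0.48 without) and highest for Col16a1 (0.80 and 0.60). Of these chains, 27 lay within 0.5 of 0 without IR and 22 with IR. Col16a1, a FACIT of skin and connective tissue, came nearest, with 0.80 with IR (adjusted p = 0.0385) and 0.60 without (adjusted p = 0.118). The cartilage collagens (Col9a1, Col9a2, Col9a3 and Col10a1), Col7a1 of the anchoring fibrils of skin, and the membrane-spanning chains Col13a1, Col17a1, Col23a1 and Col25a1 were among them. Col23a1 read 8.32 and 8.26 in tumor T cells with IR, against 7.04 and 8.24 in LN T cells with IR. Its difference of 0.65 did not pass (adjusted p = 0.323), although without LN IR replicate 2 it did (1.25, adjusted p = 0.0137). The 5 chains Col11a1, Col24a1, Col4a3, Col6a5 and Col8a2 averaged under the lower quartile in all 4 groups, so a difference in them could have gone unseen.

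**Figure D2:**
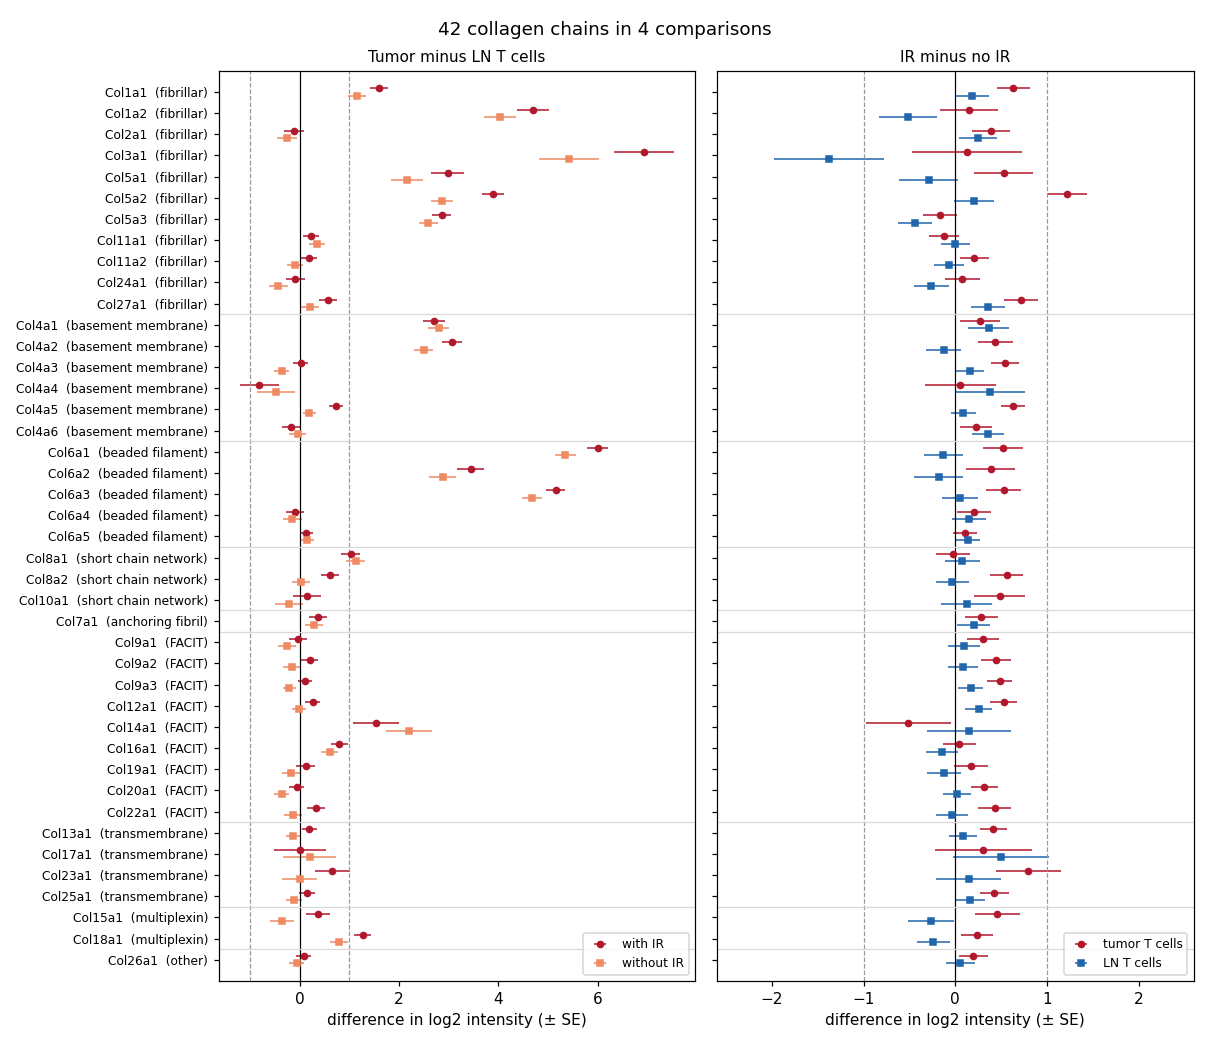
Log2 difference in intensity with its standard error (horizontal axis) for each of the 42 collagen chains, grouped by class; the left panel shows tumor minus LN T cells with and without IR, the right panel IR minus no IR in tumor and LN T cells, and dashed lines mark a log2 difference of 1. In the left panel the chains called higher lie right of the dashed line at 1, up to 6.92 for Col3a1 with IR, while in the right panel only Col5a2 (1.22, tumor) and Col3a1 (-1.38, LN) lie beyond the dashed lines and neither passed.

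Where a chain had several probe sets, they were mostly called alike. Without IR 24 of the 27 probe sets of called chains were called higher, and all were called for 7 of the 10 such chains with more than one. Among the 24 are the 13 chosen probe sets, which are called by definition. With IR it was 25 of 29, among them the 14 chosen ones, and 7 of 11 chains. Of the probe sets of the chains that were not called, 0 of 55 passed without IR and 1 of 53 with IR, the second probe set of Col27a1. The chosen probe sets of these chains are uncalled by definition, so these counts are partly set in advance.

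Chains that lie next to each other in the genome were called alike. Of the 42 chains, 7 pairs were neighbours among protein-coding genes. In 3 pairs both were called, Col3a1 with Col5a2, Col6a1 with Col6a2 and Col4a1 with Col4a2. In 4 neither was, Col9a1 with Col19a1, Col4a3 with Col4a4, Col6a4 with Col6a5 and Col4a5 with Col4a6. The share of alike calls among chains that are not neighbours was not taken. All pairs but Col3a1 with Col5a2 and Col9a1 with Col19a1 are of one collagen type, so position and type cannot be told apart. RefSeq promoter windows of 300 bases, from 250 before to 50 after a start, were at hand for 33 chains (36 windows), among them 11 of the 14 called. GGGCGG or its reverse CCGCCC was in 9 of the 13 windows of called chains and in 13 of the 23 windows of the others, against 35.7% of 32851 windows over all genes. CCAAT or ATTGG was in 5 of 13 and 8 of 23 (37.4% over all genes), and TATAAA or TTTATA in 1 of 13 and 4 of 23 (13.6%). These matches are a description of the letters and not of bound sites.

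The next question was whether IR changed the chains within a tissue. In tumor T cells 0 of 42 chains passed in either direction (background 0.0934% higher and 0.00550% lower; 14 of 42 chains had an unadjusted p under 0.05, against 16.6% of all genes). Col5a2 came nearest, with 9.27 and 9.21 with IR against 8.25 and 7.79 without (1.22 ± 0.22, 95% interval 0.70 to 1.74, adjusted p = 0.216). It passed under the robust fit (adjusted p = 0.0402), with array weights (0.0204) and when only the tumor arrays were fitted (0.0474). Its second probe set gave 0.89. Col1a1 differed by 0.63 (adjusted p = 0.287), Col3a1 by 0.13 (95% interval -1.29 to 1.55) and Col1a2 by 0.15 (95% interval -0.60 to 0.90). Col6a1, Col6a2 and Col6a3 gave 0.52, 0.39 and 0.53, and in all of these type VI chains both irradiated tumor arrays lay above both unirradiated ones. Of the 13 chains called without IR, 10 had a higher mean in irradiated tumor T cells, the exceptions being Col5a3 (-0.17), Col8a1 (-0.02) and Col14a1 (-0.51).

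Small positive values were common across the family in irradiated tumor T cells, as they were among dim genes in general. The IR difference was above 0 in 38 of 42 chains, against 59.7% of all genes, with a median of 0.35. Of these chains 33 had a mean level below the median of all genes, a range in which 81.1% of all genes had a value above 0, and 30 of the 33 did. The other 9 chains lay above that median, where 38.3% of all genes were above 0, and 8 of the 9 were. The mean level was taken over all 8 arrays, so a chain dim in LN T cells could lie above the median through its tumor arrays. The 38.3% is therefore not a matched reference for these chains. After cyclic loess normalisation 32 of 42 chains were above 0 (55.4% of all genes), and after scaling each array to its T cell identity genes 41 of 42 were (81.3%). Both irradiated tumor arrays lay above both unirradiated ones in 28 of 42 chains (background 41.4%) and below them in 0 of 42 (26.0%). The chains that differed between tissues and those that did not had much the same median IR difference, 0.39 for the 13 called without IR and 0.35 for the 28 called in neither comparison.

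In LN T cells 0 of 42 chains passed for IR, in either direction (background 0.786% higher and 0.264% lower; 0 of 42 chains had an unadjusted p under 0.05, against 14.3%). The difference was above 0 in 27 of 42 chains (50.9% of all genes), and after cyclic loess in 20. Both irradiated arrays lay above both unirradiated ones in 12 of 42 (background 21.8%) and below them in 7 of 42 (19.5%). Col3a1 had the largest difference, -1.38 ± 0.60 (95% interval -2.80 to 0.04, adjusted p = 0.351), with 5.67 and 5.99 with IR against 6.12 and 8.30 without. That value rests on LN no IR replicate 2: without it the difference was -0.29 (adjusted p = 0.633), and without replicate 1 it was -2.47 and passed (adjusted p = 0.0355). It also passed under the robust fit (adjusted p = 0.045). On replicate 2 of the LN T cells without IR, 6 of 12 endothelial markers were higher than on replicate 1 (list means 6.30 and 6.19), as were 6 of 10 pericyte and smooth muscle markers (6.82 and 6.46). Markers were also higher there in other lists: 11 of 17 fibroblast markers (list means 5.64 and 5.61) and 10 of 13 macrophage and monocyte markers (6.36 and 5.91). The same held for 8 of 12 T cell identity genes (11.75 and 11.65). The share over all genes was not taken, so these counts have no reference. The part of RNA from other cells in the Col3a1 value was not tested.

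The IR difference was also compared between the tissues. The difference passed for 0 of 42 chains (background 0% in either direction; 2 of 42 chains had an unadjusted p under 0.05, Col5a2 and Col4a5, a share near the 5.63% of all genes). Equivalently, the tumor to LN difference was larger with IR than without in 10 of the 13 chains called without IR, by up to 1.51 ± 0.85 for Col3a1, but no such change passed (lowest adjusted p = 0.758, for Col5a2 at 1.02 ± 0.31). It was smaller with IR for Col4a1 (-0.09), Col8a1 (-0.10) and Col14a1 (-0.66). Over all genes the median change was 0.12, and the share with a larger difference was not taken. The 13 chains were picked on the difference without IR, which is part of this contrast.

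Collagen chains are secreted with the help of dedicated enzymes and chaperones, whose genes were read on the same arrays. Of 21 measured genes of collagen folding and secretion 7 were higher in tumor T cells without IR (4.50% of all genes) and 6 with IR (4.80%), and none was lower (1.04% and 2.00%). These shares over all genes hold for the counts of all lists that follow. Serpinh1, the chaperone HSP47 that binds procollagen, read 8.68 and 8.48 in tumor T cells with IR and 8.64 and 8.31 without, against 4.70 and 5.17 in LN T cells with IR and 4.34 and 4.83 without. It rose by 3.65 with IR (adjusted p = 0.000445) and 3.89 without (adjusted p = 0.000416), from LN levels under the lower quartile. The lysyl hydroxylases Plod1 and Plod3 rose by 1.12 and 1.13 with IR and by 1.53 and 1.20 without. The prolyl hydroxylase subunits P4ha1 and P4ha2 rose by 1.09 and 1.60 with IR and by 1.54 and 1.08 without, and Crtap, a part of the prolyl 3-hydroxylation complex, by 1.46 and 1.40. Plod2 passed without IR alone (1.75, adjusted p = 0.0972) and gave 1.47 with IR (adjusted p = 0.11). Of the list's genes that did not pass, Ppib, a prolyl isomerase of the secretory pathway, gave 0.13 with IR and 0.05 without.

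Of 13 genes that trim or crosslink collagen outside the cell 4 were higher without IR and 3 with IR, and none was lower. Tgm2, a transglutaminase made by many cell types, rose by 1.85 with IR and 2.84 without. Pcolce, which speeds the removal of the procollagen end piece, rose by 1.98 and 1.83. Loxl1, of the lysyl oxidase family, rose by 1.19 and 1.21. Bmp1, the proteinase that Pcolce assists, rose without IR (1.11, adjusted p = 0.0068) and was under the fold limit with IR (0.85). Lox itself read 5.71 and 5.93 in tumor T cells with IR and 5.00 and 4.87 without, against 5.07 and 5.46 in LN T cells with IR and 5.34 and 5.23 without, and did not pass. Of 12 collagen receptors and uptake genes 3 were higher in both comparisons and none was lower. They were Itga1, the collagen-binding integrin chain carried by tissue-resident T cells (4.21 with IR and 3.09 without), Adgrg1, an adhesion receptor that binds type III collagen (3.13 and 2.63), and Ddr2, a receptor kinase of fibrillar collagen (1.60 and 1.75). Lair1, the inhibitory collagen receptor of leukocytes, spread from 6.45 to 9.23 within irradiated tumor T cells and did not pass (2.10 with IR and 1.79 without, adjusted p = 0.256 and 0.43). For IR no gene of these 3 lists was called by limma, with a lowest adjusted p of 0.249 in tumor and 0.108 in LN T cells.

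Marker lists of cells known for collagen moved with the chains to different extents. In bulk RNA, fewer cells of a type and less RNA per cell cannot be told apart. Of 17 measured fibroblast markers, all of them other than collagens, 8 were higher and 1 lower in tumor T cells with IR, and 6 were higher and none lower without IR. Dcn, the collagen-binding proteoglycan decorin, rose by 4.64 with IR and 4.16 without. Prrx1, a mesenchymal transcription factor, rose by 3.66 and 3.47, Dpt by 3.55 and 2.25, Pdpn by 3.50 and 3.32, Fbln2 by 3.06 and 2.11 and Twist1 by 1.99 and 1.53. Sfrp2 was the one lower with IR (-1.86). Averaged over the 17 markers, the arrays read 7.38 and 7.24 in tumor T cells with IR and 6.96 and 6.69 without, against 5.74 and 5.77 in LN T cells with IR and 5.61 and 5.64 without. Of the 17, 4 averaged under the lower quartile in every group (Lum, Fap, Tcf21 and Mfap5), while Pdgfra and Pdgfrb had differences under the fold limit (0.96 and 0.68 with IR). The 13 chains called without IR averaged 9.17 and 9.45 in tumor T cells with IR and 9.11 and 8.88 without, against 5.73 and 5.84 in LN T cells with IR and 5.87 and 6.01 without. These 13 chains were picked by their call, which set their separation of tumor from LN arrays. All 42 chains, picked by no call, averaged 7.20 and 7.25 in tumor T cells with IR and 6.98 and 6.81 without. Their LN averages were 5.90 and 6.08 with IR and 5.96 and 6.00 without. The markers and the 42 chains both separated the tumor arrays from the LN arrays. Both put tumor no IR replicate 2 lowest among the tumor arrays. They differed at the top, where the markers were highest on tumor IR replicate 1 and the chains on tumor IR replicate 2. The part of fibroblast RNA in the collagen values was not tested.

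**Figure D3:**
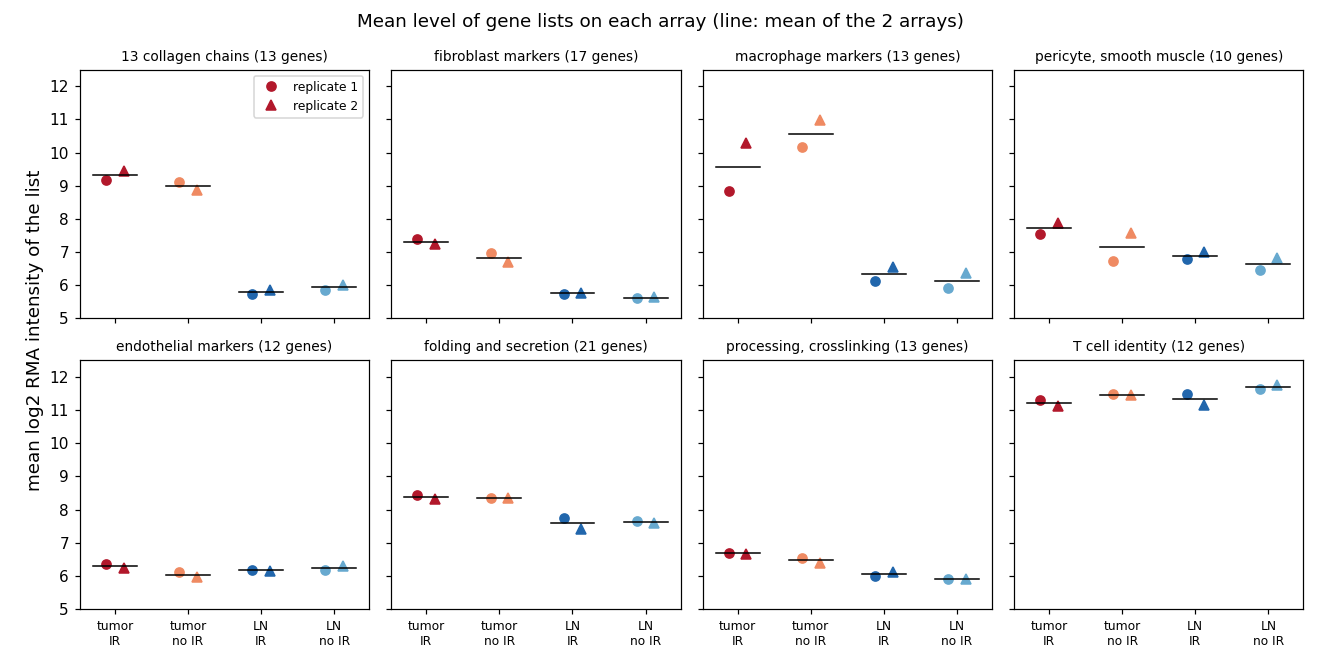
Mean log2 RMA intensity (vertical axis) of 8 gene lists on each array by group, with a line at the mean of the 2 arrays. The 13 collagen chains called without IR, the fibroblast and the macrophage markers lie higher on the 4 tumor arrays than on the 4 LN arrays, whereas the T cell identity genes stay between 11.1 and 11.8 on every array. For the 13 chains this follows from their call.

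Of the other cell types, 1 of 10 pericyte and smooth muscle markers was higher with IR, Rgs5, and 1 lower, Mcam, and none was called without IR. Rgs5, a pericyte marker, read 9.04 and 10.35 in tumor T cells with IR and 5.06 and 9.75 without, against 5.18 and 5.03 in LN T cells with IR and 4.61 and 4.96 without, so that tumor no IR replicate 1 was near the LN arrays. Col4a1, also made by pericytes, read 8.51 on that array, the lowest of its 4 tumor values. Its partner Col4a2 went the other way, with 7.81 on that array and 7.52 on tumor no IR replicate 2. Of the 13 chains called without IR, 10 were lower on tumor no IR replicate 2 than on replicate 1. The part of pericyte RNA in these values was not tested. Of 12 endothelial markers none was higher in either comparison, and Pecam1, which T cells also express, was lower in both (-1.63 with IR and -1.90 without). Of 13 macrophage and monocyte markers 12 were higher in both comparisons. Of 9 epithelial and carcinoma markers 2 were higher in both, Cdh1 and Sox9. None of 6 LN stroma genes and none of 12 T cell identity genes was called. How far any of these cells contributed to the collagen values was not tested.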

How the data were processed

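Cells of 8 pools were profiled on Affymetrix whole-genome mouse arrays. The authors processed the scans with RMA (version not given in the sources used here). Log2 values of 45101 probe sets were used as the authors deposited them. The number of arrays limits the precision. Probe sets were named by GEO's platform annotation, in which 34945 name 1 gene and 932 several. All 42 chains matched a RefSeq gene of GRCm38.p6 by Entrez ID. The groups were fitted together by least squares in limma 3.58.1 (R 4.3.3), with variances moderated by empirical Bayes on 4 residual and 3.13 prior degrees of freedom. Benjamini-Hochberg adjustment ran over the 35877 annotated probe sets. The paper's methods fit limma robustly and intersect it with SAM. Here the robust fit was an alternative and SAM was not run. The script was checked on simulated data. Since the labels do not tie arrays to experiments, the p-values measure the spread between these pools. The thresholds are those of the paper's methods. The chains named with full values are those called in any comparison and the chains of types I, III, IV (Col4a1 and Col4a2), V (Col5a1 and Col5a2) and VI (Col6a1 to Col6a3). Genes of other lists are named by largest difference, and those outside these rules (among them Col23a1, Lox, Lair1 and Ppib) were chosen after their values were seen. The chains, lists and tests were chosen with earlier results of these data known. Alternatives covered the fit, the thresholds, the choice of probe set, the dimmer probe sets, the scaling and each array in turn.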

Additional observations from a re-analysis of the deposited data

How the results depend on the processing

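Between 11 and 13 chains were higher in tumor T cells without IR, and between 12 and 14 with IR, when each array was left out in turn. With the dimmer 50% of probe sets left out, 13 of the 42 chains were still tested, and 8 were called in each comparison, all of them among the chains called before. The filter used the mean over all arrays, so a chain dim in LN T cells could be kept through its tumor arrays. The share still called is therefore partly set by the filter. For IR in tumor T cells 1 chain, Col5a2, was higher under the robust fit, with array weights, when only the arrays compared were fitted, and without either LN IR array (range 0 to 1 over the arrays left out). For IR in LN T cells 1 chain, Col3a1, was lower under the robust fit and without LN no IR replicate 1 (range 0 to 1). With IR the count of chains lower in tumor T cells ranged from 0 to 1, with Col4a4 called without LN IR replicate 1. The cause was not tested. In the other settings these counts stayed within 1.5 times their value or at 0. Over the chains named with full values, 1327 results kept their side of the threshold, 20 lost their call, 9 gained one and 0 reversed. Col1a2, Col3a1, Col5a1, Col5a2, Col5a3, Col4a1, Col4a2, Col6a1, Col6a2 and Col6a3 were called in both comparisons under every setting that tested them. Col18a1 passed without IR after scaling to T cell identity genes (1.02) and with no fold limit, and with IR it fell under the limit when a gene's probe sets were averaged (1.00). Col14a1 with IR lost its call with array weights, with only the arrays compared, at an adjusted p under 0.05 and after cyclic loess (adjusted p = 0.0941 to 0.304 in these 4), and without 6 of the 8 arrays in turn. Scaling to T cell identity genes raised the median difference of all genes by 0.23 without IR and 0.11 with IR between tissues, and by 0.25 in tumor and 0.38 in LN T cells for IR.

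With replicate number as a block the same 13 chains were higher without IR and the same 14 with IR, and 0 chains passed for IR in either tissue. The block is no pairing by the labels. The deviations of same-numbered arrays correlated at 0.43 within tumor and 0.43 within LN T cells but between -0.14 and 0.07 across the tissues. Same-numbered arrays of a tissue therefore shared part of their deviations. Whether they came from the same experiment is not given by the labels.

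With 2 arrays per group an IR difference of the size seen for most chains is hard to tell from the spread: the median standard error over the chains was 0.19. Chains under the lower quartile in a group have only an upper limit there.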
